A study of Mus musculus with 16 samples.

Results

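The genes described here carry oncostatin M and interleukin 6 signals into the cell: the cytokines Osm, Il6 and Lif, the receptor chains Osmr, Il6ra and Il6st, the kinases Jak1 and Jak2, the transcription factor Stat3 and the feedback inhibitor Socs3. They were taken as a named set, through every probe of the deposited non-normalized table whose symbol was one of these names. This gave 17 probes for 10 genes, out of 25697 probes for 18117 genes. RNA came from whole hamstring muscle of female mice, taken 2 days after surgery, and was read on Illumina BeadChips with 1 array for each of 16 samples.

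The 4 groups combined a surgery with an injection into the muscle. SCI+CDTX mice had a spinal cord injury (SCI) at the lower thoracic spine and an injection of CDTX (cardiotoxin), which kills muscle fibres and comes from snake venom. SCI+Saline mice had the cord injury and an injection of saline, Sham+CDTX mice had sham surgery and CDTX, and Sham+Saline mice had sham surgery and saline. Per the series' design text, SCI+CDTX is the condition in which neurogenic heterotopic ossification, bone forming inside muscle after an injury of the nervous system, develops. Strain and age are not given in the sources used here. Each group has 4 numbered samples, and the labels do not say outright that these are separate animals, so p-values measure the spread between these samples.

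SCI+CDTX replicate 2 was left out of the final analysis by the authors, per the labels, and is shown apart here, so SCI+CDTX has n = 3 and the other groups n = 4 in every test. All SCI arrays lay on 1 BeadChip slide and all sham arrays on another, so surgery and slide cannot be told apart in any comparison of SCI with sham. The arrays averaged 33.3 to 38.9 beads per probe and detected 11114 to 13694 probes. Sham+Saline arrays were the dimmest, with mean intensities of 230 to 277 and 11114 to 11850 probes detected. Mean intensities were 320 to 373 in SCI+CDTX, 321 to 335 in SCI+Saline and 325 to 339 in Sham+CDTX. Contrasts with Sham+Saline therefore depend on the scaling of the arrays. A score built from the differences between probes of the same gene (2740 genes) was 18.2 to 20.4 on the Sham+CDTX arrays and 14.8 on SCI+CDTX 2, against -13.9 to -3.8 on the other 11 arrays, and its part in the results was not tested beyond the fit with the score as a covariate. Markers of skeletal muscle fibre (8 of 8 tested) were abundant in every group, with summed levels of 94700 to 110000.

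As background, cytokines of the interleukin 6 family bind a receptor chain of their own together with the shared signalling chain encoded by Il6st. Kinases of the JAK family attached to the receptor then phosphorylate STAT3, which enters the nucleus and switches on target genes. Socs3 is one of these targets, and its protein binds the receptor complex and shuts the signal down. In muscle, oncostatin M is made largely by infiltrating myeloid cells, and the family takes part in both inflammation and repair.

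Because Socs3 is a known target of STAT3, its promoter was searched for the STAT motif TTCNNNGAA (the same on both strands) and for its stricter form TTCCNGGAA, which is contained in it. The window was the 250 bases upstream of the gene start in RefSeq (GRCm38.p6), found for 9 of the 10 genes. Socs3 held 1 match to TTCNNNGAA, starting 154 bases upstream of the start, and was the 1 of the 9 genes with a match. Over all 32851 promoter windows of this length, 7.02% held the motif. None of the 9 held TTCCNGGAA, which 0.913% of all windows held. Each window was placed by the RefSeq start, and bases outside it were not searched. A window with no match therefore does not mean that the gene lacks the motif. A match is a run of letters and does not show binding. In the Socs3 window, chr11:117969367-117969616 on the minus strand, the capitals mark the match.
Socs3 promoter: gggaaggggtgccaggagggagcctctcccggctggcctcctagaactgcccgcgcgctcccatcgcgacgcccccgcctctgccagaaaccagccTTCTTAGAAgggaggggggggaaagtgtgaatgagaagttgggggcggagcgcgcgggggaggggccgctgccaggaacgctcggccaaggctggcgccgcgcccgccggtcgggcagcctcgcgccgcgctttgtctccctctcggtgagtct

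The probes that the results turn on are 50-base oligonucleotides, and their first 30 bases are given as the deposited table lists them. Osm and Socs3 are shown because they carried the changes of the SCI+CDTX group, and the Stat3 probes because they disagreed with each other.
Osm ILMN_2919411: tctcccagtgcctaaaagccctgttttggg
Socs3 ILMN_2618176: ccccactcaggccttcgaggctgtctgaag
Stat3 ILMN_2589790: cggggttggttgttagacaagtgcctcctg
Stat3 ILMN_2698046: ccttgctaatatccacatagaagctaggac
Stat3 ILMN_3096144: ccctgcctcaggaccttgtgtcgagaggga

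A probe counted as detected on an array when its detection p-value was under 0.05, and a probe was tested when it was detected on at least 3 of the 15 arrays. This left 11 of the 17 probes, for 8 of the 10 genes, within 14763 probes tested. Lif had no detected signal on any of the 16 arrays with any of its 3 probes. The Il6 probe was detected on 2 arrays, and a second Osm probe (ILMN_2543107) on 1 array, SCI+Saline 3. In a fit with no detection filter this second Osm probe gave -0.26 ± 0.18 for SCI+CDTX against SCI+Saline (adjusted p = 0.404 in limma). Another Jak2 probe (ILMN_1254831) was detected on none.

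**Figure D1:**
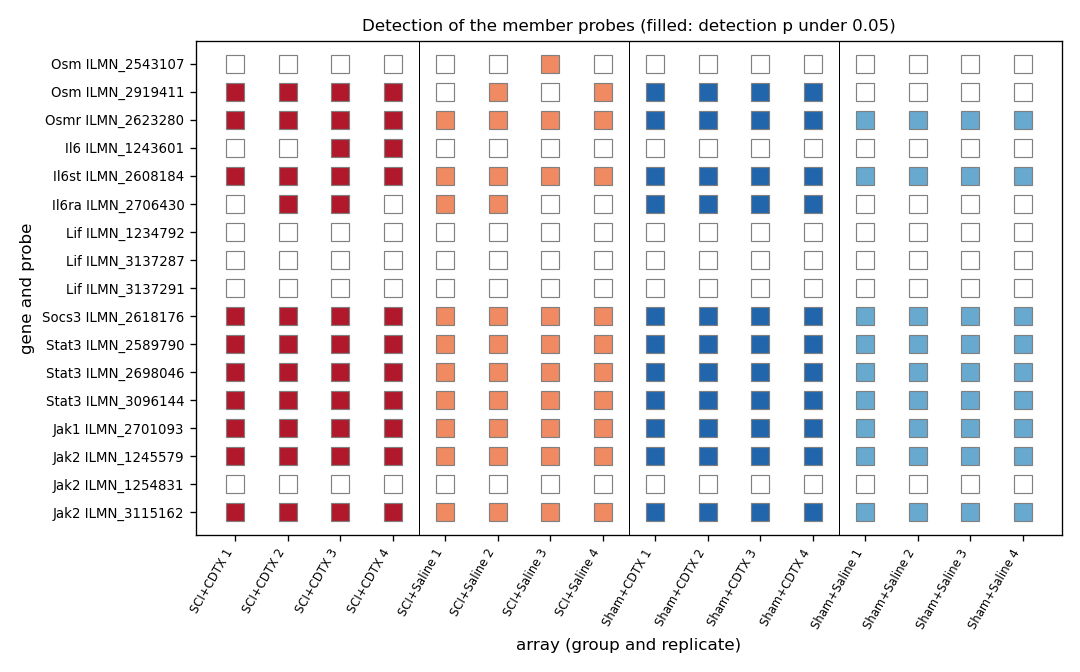
Detection of the 17 probes (rows) on the 16 arrays (columns, by group and replicate); a filled square is a detection p-value under 0.05. Osm ILMN_2919411 is filled on all SCI+CDTX and Sham+CDTX arrays and on no Sham+Saline array, and Il6 on 2 SCI+CDTX arrays.

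Among Osm, Il6 and Lif, oncostatin M was the ligand with a tested probe. Osm (ILMN_2919411, chromosome 11, band 11qA1) stood at 5.88, 6.54 and 6.77 in SCI+CDTX replicates 1, 3 and 4, in log2 normalized intensity. In Sham+CDTX it stood at 5.50, 5.18, 5.17 and 5.24. In SCI+Saline it stood at 4.33, 4.86, 4.23 and 5.24, with detection on replicates 2 and 4, and in Sham+Saline at 4.74, 4.39, 4.21 and 4.70 with detection on none. All 3 SCI+CDTX arrays lay above every array of the other groups, and Sham+CDTX lay above Sham+Saline without overlap. Group means were 6.40 ± 0.47 (SD, n = 3) for SCI+CDTX, 5.27 ± 0.15 for Sham+CDTX, 4.66 ± 0.47 for SCI+Saline and 4.51 ± 0.26 for Sham+Saline (n = 4 each).

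Osm rose by 1.73 ± 0.24 (log2, SE) in SCI+CDTX over SCI+Saline, 3.33-fold, with a Benjamini-Hochberg adjusted p of 1.63e-05 in limma. It was 1.12 ± 0.24 higher in SCI+CDTX than in Sham+CDTX (adjusted p = 0.00146 in limma). CDTX after sham surgery raised it by 0.76 ± 0.22 (adjusted p = 0.0073 in limma), a value that was 0.23 with no background correction (adjusted p = 0.0509) and 2.21 with the probe difference score as a covariate (adjusted p = 0.0151). Since no Sham+Saline array detected the probe, the fold over that group is a bound, set from the lowest signal among detected probes: at least 3.07-fold higher in SCI+CDTX and at least 1.41-fold higher in Sham+CDTX. SCI+Saline and Sham+Saline, the lowest neighbours in this order, differed by 0.15 with a 95% interval of -0.31 to 0.61. In normalized intensity the CDTX effect was 0.97 ± 0.32 larger after cord injury than after sham surgery (interaction, adjusted p = 0.0355 in limma). Its size is not exact, since Osm was detected on no Sham+Saline array and on 2 of 4 SCI+Saline arrays. This call was lost when any of 9 of the 15 arrays was left out (0.78 at the lowest, without SCI+CDTX 4, adjusted p = 0.119) and with no detection filter (adjusted p = 0.0858).

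SCI+CDTX 2 read 5.19 for Osm in the normalization of all 16 arrays, where the other 3 SCI+CDTX arrays read 5.91 to 6.81 and Sham+CDTX 5.20 to 5.53. With SCI+CDTX 2 included, Osm stayed higher than in SCI+Saline (1.45, adjusted p = 0.000803 in limma), and the difference from Sham+CDTX was 0.82 (adjusted p = 0.0546) and the interaction 0.66 (adjusted p = 0.312). With the probe difference score as a covariate as well, the difference from Sham+CDTX was -0.09 ± 0.43 (adjusted p = 0.964 in limma), while that from SCI+Saline was 1.84 ± 0.29 (adjusted p = 8e-05 in limma). Sham+CDTX and the score coincide apart from SCI+CDTX 2, so this fit leans on that array.

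Il6, the founding cytokine of the family (ILMN_1243601, chromosome 5, band 5qB1), was close to background. Its raw intensity was 125.6 and 125.7 on SCI+CDTX replicates 3 and 4, where it was detected, 105.8 on replicate 1 and 104.6 on replicate 2. On the 12 arrays of the other groups it ranged from 89.2 to 103.9. The 2 detected readings were the highest of all 16 arrays, and with detection on 2 arrays the probe stayed below the detection filter. In the fit of all probes with no such filter, Il6 was higher in SCI+CDTX than in SCI+Saline by 0.64 ± 0.15 (adjusted p = 0.00619 in limma). The gap was 0.61 over Sham+CDTX (adjusted p = 0.0123 in limma) and 0.59 over Sham+Saline (adjusted p = 0.00915 in limma). These sizes are set against groups in which Il6 was not detected, and they rest on replicates 3 and 4. Those replicates read 5.16 and 5.17, while replicate 1, at 4.37, lay below the highest Sham+CDTX (4.42) and Sham+Saline (4.44) arrays. The SD was 0.46 for SCI+CDTX, against 0.04 for SCI+Saline, 0.09 for Sham+CDTX and 0.08 for Sham+Saline. For the same contrasts the authors' deposited table gives difference p-values of 0.09101, 0.13927 and 0.12352. For Lif, which signals through Il6st together with a receptor chain of its own, the smallest detection p-value over 3 probes and 16 arrays was 0.09398.

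**Figure D2:**
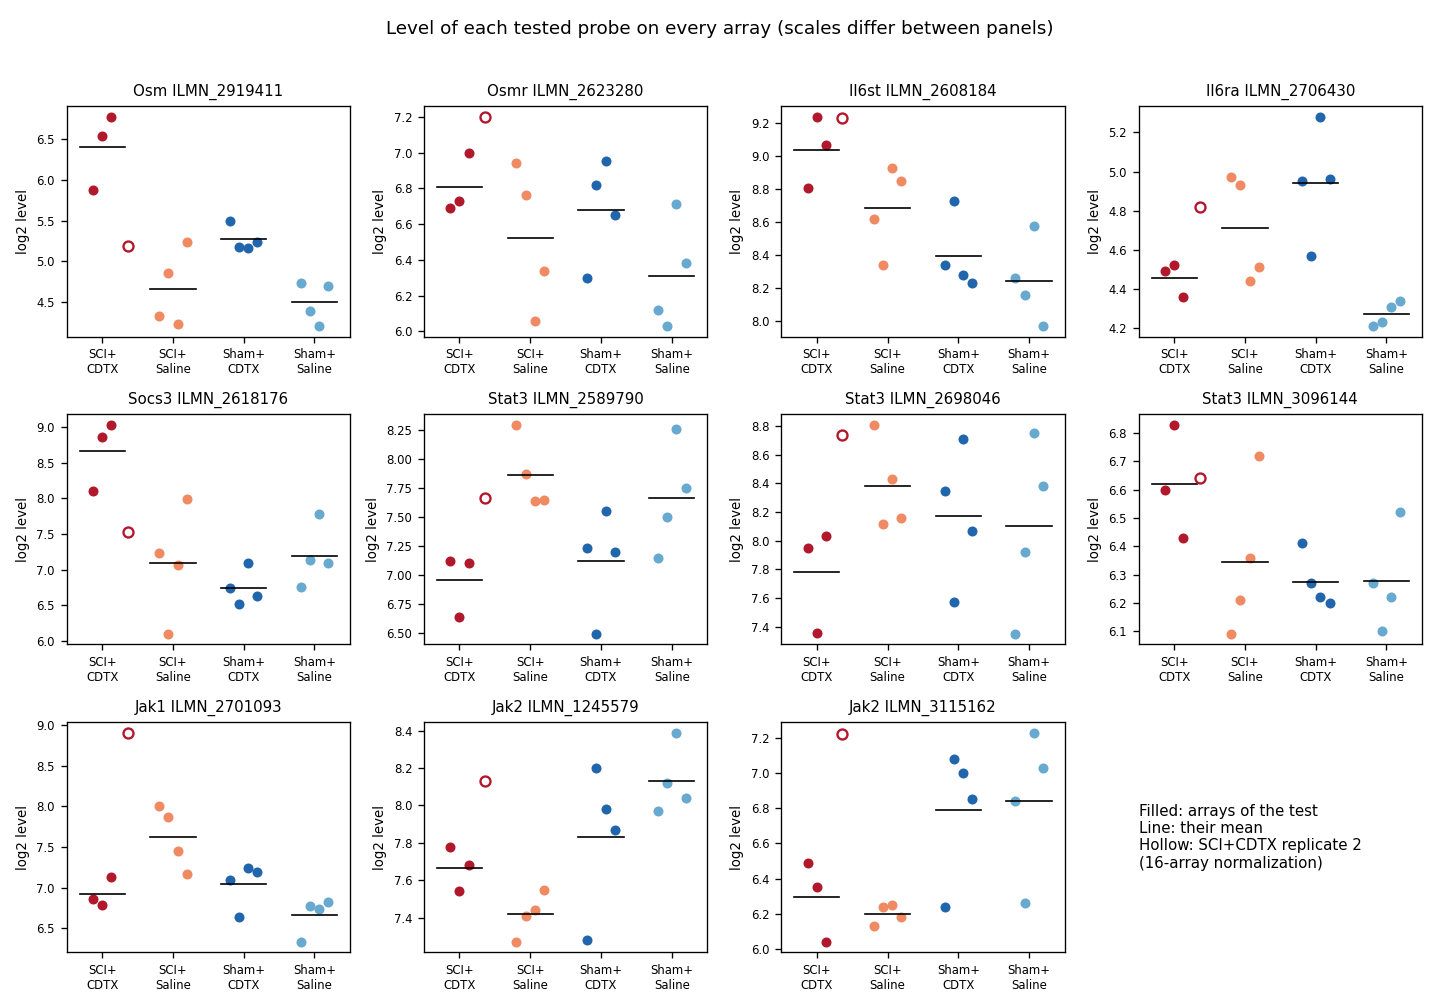
Level of each of the 11 tested probes on every array, in log2 normalized intensity, by group; lines are means and the hollow point is SCI+CDTX 2 from the 16-array normalization. The Osm and Socs3 points of SCI+CDTX lie above every other array of the test, with SCI+CDTX 2 at 5.19 and 7.53 below them.

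Among the receptors, Il6st was higher in SCI+CDTX than in either sham group, and Osmr passed no test in the fit of the 15 arrays. Il6st (ILMN_2608184, chromosome 13, band 13qD2.2), the shared signalling chain, stood at 8.81, 9.24 and 9.07 in SCI+CDTX and at 8.34, 8.73, 8.28 and 8.23 in Sham+CDTX. It stood at 8.62, 8.34, 8.93 and 8.85 in SCI+Saline and at 8.26, 8.16, 8.58 and 7.97 in Sham+Saline. SCI+CDTX did not overlap with either sham group and overlapped with SCI+Saline. The difference was 0.64 ± 0.18 from Sham+CDTX (adjusted p = 0.0122 in limma) and 0.80 ± 0.18 from Sham+Saline (adjusted p = 0.00142). Both contrasts set SCI against sham and so 1 slide against the other, and without SCI+CDTX 3 the first was 0.54 (adjusted p = 0.071). It was 0.55 under median scaling (adjusted p = 0.0509) and 0.70 ± 0.30 with the score as a covariate (adjusted p = 0.282). SCI+Saline over Sham+Saline was 0.44 ± 0.17 and missed the threshold (adjusted p = 0.057 in limma), which it passed under median scaling at 0.97 (adjusted p = 0.000523). SCI+CDTX 2, at 9.23, lay within the range of the other SCI+CDTX arrays.

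Osmr (ILMN_2623280, chromosome 15, band 15qA1), the chain that pairs with Il6st to bind oncostatin M, was detected on all 16 arrays. Its levels were 6.69 to 7.0 for SCI+CDTX, 6.06 to 6.94 for SCI+Saline, 6.30 to 6.95 for Sham+CDTX and 6.03 to 6.71 for Sham+Saline, so all groups overlapped. The widest gap, SCI+CDTX over Sham+Saline, was 0.49 with a 95% interval of 0.04 to 0.94 (adjusted p = 0.0691 in limma). It passed over all 16 arrays (0.58, adjusted p = 0.0292), with array weights (0.57, adjusted p = 0.0227), under median scaling (1.23, adjusted p = 0.000117), without Sham+Saline 3 (0.63, adjusted p = 0.0259) and without SCI+Saline 3 (0.49, adjusted p = 0.0494). The CDTX effect after cord injury was 0.28 with an interval of -0.17 to 0.73. The authors' deposited table, normalized by array averages, gives Osmr a difference p-value of 0.00108 for SCI+CDTX against SCI+Saline, with the authors' means of 116.8 and 61.9, and lists it at 0 for SCI+CDTX against Sham+Saline. Median scaling in place of quantile normalization gave 0.67 for this contrast (adjusted p = 0.0195 in limma).

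Il6ra (ILMN_2706430, chromosome 3, band 3qF1), the chain that binds interleukin 6 itself, was dim. It was detected on all 4 Sham+CDTX arrays, on 2 of 4 SCI+Saline arrays, on 1 of 3 SCI+CDTX arrays and on none of Sham+Saline. It stood at 4.95, 4.57, 5.28 and 4.96 in Sham+CDTX and at 4.49, 4.52 and 4.36 in SCI+CDTX. In SCI+Saline it stood at 4.97, 4.93, 4.44 and 4.51, and in Sham+Saline at 4.21, 4.23, 4.31 and 4.34. The Sham+CDTX arrays lay above all SCI+CDTX and Sham+Saline arrays and overlapped with SCI+Saline.

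CDTX after sham surgery raised Il6ra by 0.67 ± 0.16 (adjusted p = 0.00183 in limma), at least 1.12-fold over a group with no detected array. After cord injury its CDTX effect was -0.26 with an interval of -0.62 to 0.10, and the interaction in normalized intensity was -0.92 ± 0.23 (adjusted p = 0.0075 in limma), a size that is not exact because it takes in the undetected Sham+Saline arrays. SCI+Saline, with a mean of 4.71, passed as higher than Sham+Saline, with 4.28 (adjusted p = 0.0458 in limma). No fold is given for that pair, since the lowest detected signals on the Sham+Saline arrays, 4.71 to 4.86, lay at or above the SCI+Saline mean. Il6ra fell by 0.49 ± 0.17 in SCI+CDTX against Sham+CDTX (adjusted p = 0.0377 in limma). Both of these calls missed the threshold over all 16 arrays (adjusted p = 0.0633 and 0.1 in limma), with the replicate number as a block (0.0667 and 0.054), and when any of 11 and of 6 single arrays was left out. With the score as a covariate the CDTX effect after sham surgery was -0.07 (adjusted p = 0.929) and the difference between SCI+CDTX and Sham+CDTX was 0.06 (adjusted p = 0.956).

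Jak1 was highest after cord injury with saline. This kinase binds the shared receptor chain and phosphorylates STAT3. Its probe (ILMN_2701093, chromosome 4, band 4qC6) stood at 8.01, 7.87, 7.45 and 7.17 in SCI+Saline and at 6.86, 6.78 and 7.13 in SCI+CDTX. In Sham+CDTX it stood at 7.09, 6.64, 7.24 and 7.19, and in Sham+Saline at 6.33, 6.77, 6.74 and 6.82. The SCI+Saline arrays lay above all SCI+CDTX and Sham+Saline arrays.

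Jak1 was 0.96 ± 0.19 higher in SCI+Saline than in Sham+Saline (adjusted p = 0.000792 in limma). In SCI+CDTX it fell by 0.70 ± 0.20 against SCI+Saline (adjusted p = 0.00936), and the interaction was -1.07 ± 0.28 (adjusted p = 0.00883). Against SCI+Saline the difference was -0.63 without SCI+CDTX 3 (adjusted p = 0.0508) and -0.41 under median scaling (adjusted p = 0.103). The authors' deposited table gives Jak1 a difference p-value of 0.55284 for that contrast. The contrast with SCI+Saline and the interaction rest on leaving out SCI+CDTX 2, which read 8.91 for Jak1 where the other 3 read 6.82 to 7.17, the highest of all 16 arrays. With it, Jak1 in SCI+CDTX differed from SCI+Saline by -0.21 (adjusted p = 0.662 in limma) and the interaction was -0.58 (adjusted p = 0.462), while SCI+Saline over Sham+Saline stayed at 0.96 (adjusted p = 0.045). With the score as well, the interaction was 1.30 ± 0.43 (adjusted p = 0.249) and Jak1 in Sham+CDTX against Sham+Saline was -2.23 ± 0.49 (adjusted p = 0.00519).

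Jak2, a second kinase of these receptors, was lower after cord injury with saline on both of its tested probes (chromosome 19, band 19qC1). ILMN_1245579 stood at 7.27 to 7.55 in SCI+Saline and at 7.97 to 8.39 in Sham+Saline. ILMN_3115162 lies 913 bases away on the chromosome, with a listed start at base 3553 of its transcript against 3850 for the first. It stood at 6.13 to 6.25 and at 6.26 to 7.23 in the same groups. Neither probe overlapped between these 2 groups in normalized intensity. The raw intensities did overlap, at 216.8 to 277.7 and 218.2 to 304 for the first probe. For the second they were 142.3 to 156.9 and 117.4 to 175. The falls were 0.71 ± 0.17 (adjusted p = 0.0035 in limma) for the first probe and 0.64 ± 0.20 (adjusted p = 0.0214) for the second. The second was -0.51 without Sham+Saline 3 (adjusted p = 0.0745) and -0.58 without Sham+Saline 4 (adjusted p = 0.0566), and missed the threshold over all 16 arrays (adjusted p = 0.0576).

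In SCI+CDTX the Jak2 probes stood at 7.54 to 7.78 and at 6.04 to 6.49, and in Sham+CDTX at 7.28 to 8.20 and at 6.24 to 7.08. Neither probe passed for CDTX, with 0.25 (interval -0.13 to 0.63) and 0.10 (interval -0.36 to 0.55) after cord injury. The first passed under median scaling at 0.54 (adjusted p = 0.0422 in limma). The authors' deposited table gives difference p-values of 0.0069 and 0.03617 for this contrast. The authors' means are 218.7 in SCI+CDTX and 133.3 in SCI+Saline for the first probe, and 78.3 and 45.2 for the second. SCI+CDTX was below Sham+Saline by -0.47 and -0.55 (adjusted p = 0.0433 and 0.0464 in limma), calls that were lost over all 16 arrays (adjusted p = 0.117 and 0.29), with the replicate block (0.0714 and 0.0504) and when any of 7 and of 10 single arrays was left out. SCI+CDTX 2 lay above the other SCI+CDTX arrays on both probes, at 8.13 and 7.22. Under median scaling the falls of SCI+Saline were -0.29 and -0.28, with adjusted p = 0.29 and 0.406. That scaling moved the median of all probes in this contrast to 0.17, from -0.01.

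Stat3 itself gave no single answer, because its 3 probes moved differently (chromosome 11, band 11qD). The probes start 105 to 626 bases apart on the chromosome. The listed starts in the transcript are 2901 for ILMN_2589790, 3006 for ILMN_2698046 and 3477 for ILMN_3096144. ILMN_2589790 stood at 7.12, 6.64 and 7.10 in SCI+CDTX and at 8.30, 7.87, 7.64 and 7.65 in SCI+Saline, with no overlap. It stood at 7.23, 6.49, 7.55 and 7.20 in Sham+CDTX and at 7.15, 7.5, 8.26 and 7.75 in Sham+Saline. By this probe Stat3 fell by 0.91 ± 0.26 in SCI+CDTX against SCI+Saline (adjusted p = 0.00747 in limma) and by 0.71 ± 0.26 against Sham+Saline (adjusted p = 0.0285). Without SCI+CDTX 3 these were -0.76 (adjusted p = 0.055) and -0.56 (adjusted p = 0.144), and the second was also lost without Sham+Saline 3 (0.102) or Sham+Saline 4 (0.0526), over all 16 arrays (-0.54, adjusted p = 0.0978), with array weights (0.054) and with no detection filter (0.0767). Under median scaling they were -0.63 (adjusted p = 0.0743) and 0.04 (adjusted p = 0.912).

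ILMN_2698046, 105 bases from it, pointed the same way after cord injury with -0.60 ± 0.30 but missed the threshold (adjusted p = 0.112 in limma). ILMN_3096144, 626 bases from the first, pointed the other way with 0.28 ± 0.16 (adjusted p = 0.186). Its 3 SCI+CDTX arrays, at 6.60, 6.83 and 6.43, lay above all 4 Sham+CDTX arrays, at 6.20 to 6.41, a difference of 0.35 that did not pass (adjusted p = 0.124). SCI+CDTX 2 read 7.67, 8.74 and 6.64 on the 3 probes, above the other SCI+CDTX arrays on the first 2 and within them on the third. For SCI+CDTX against SCI+Saline the authors' deposited table gives difference p-values of 0.13436, 0.7056 and 0.02295 in the same order. ILMN_3096144 also passed for this contrast under median scaling, at 0.67 (adjusted p = 0.00987 in limma). A direction for Stat3 mRNA therefore depended on the probe read and on the scaling.

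Socs3, the feedback inhibitor whose promoter is printed above, had the largest interaction of the 11 probes. Its probe (ILMN_2618176, chromosome 11, band 11qE2) stood at 8.10, 8.85 and 9.03 in SCI+CDTX and at 6.75, 6.52, 7.10 and 6.63 in Sham+CDTX. It stood at 7.23, 6.10, 7.07 and 7.99 in SCI+Saline and at 6.76, 7.13, 7.78 and 7.10 in Sham+Saline. The 3 SCI+CDTX arrays lay above the 12 arrays of the other groups, and those groups overlapped with each other. The means were 8.66 ± 0.49 (SD, n = 3), 6.75 ± 0.25, 7.10 ± 0.77 and 7.19 ± 0.42 in the same order (n = 4 each).

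Socs3 rose in SCI+CDTX by 1.56 ± 0.33 over SCI+Saline, 2.96-fold (adjusted p = 0.000838 in limma), by 1.91 ± 0.33 over Sham+CDTX, 3.76-fold (adjusted p = 0.00024), and by 1.47 ± 0.33 over Sham+Saline (adjusted p = 0.00113). CDTX after sham surgery gave -0.44 with an interval of -1.08 to 0.20, and cord injury with saline gave -0.10 with an interval of -0.73 to 0.54. The interaction was 2.01 ± 0.45 (adjusted p = 0.00315 in limma). Neither CDTX alone nor cord injury alone passed the test, and the difference between the CDTX effects did.

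SCI+CDTX 2 read 7.53 for Socs3, below the 8.14 to 9.06 of the other SCI+CDTX arrays and above the 6.56 to 7.14 of Sham+CDTX. With it included, the contrasts with SCI+Saline and Sham+CDTX were 1.27 (adjusted p = 0.00855 in limma) and 1.61 (adjusted p = 0.00417), and the interaction was 1.71 (adjusted p = 0.0343). With the score as a covariate, the contrast with SCI+Saline was 1.71 ± 0.36 (adjusted p = 0.000984), that with Sham+CDTX 0.61 ± 0.53 (adjusted p = 0.688) and the interaction 0.57 ± 0.66 (adjusted p = 0.794). The authors' deposited table gives Socs3 difference p-values of 0.00201, 0.00028 and 0.00017 when SCI+CDTX is set against, in turn, SCI+Saline, the Sham+CDTX group and Sham+Saline. For Osm (ILMN_2919411) the authors' deposited table gives 0.00019, 0.00858 and 3e-05.

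**Figure D3:**
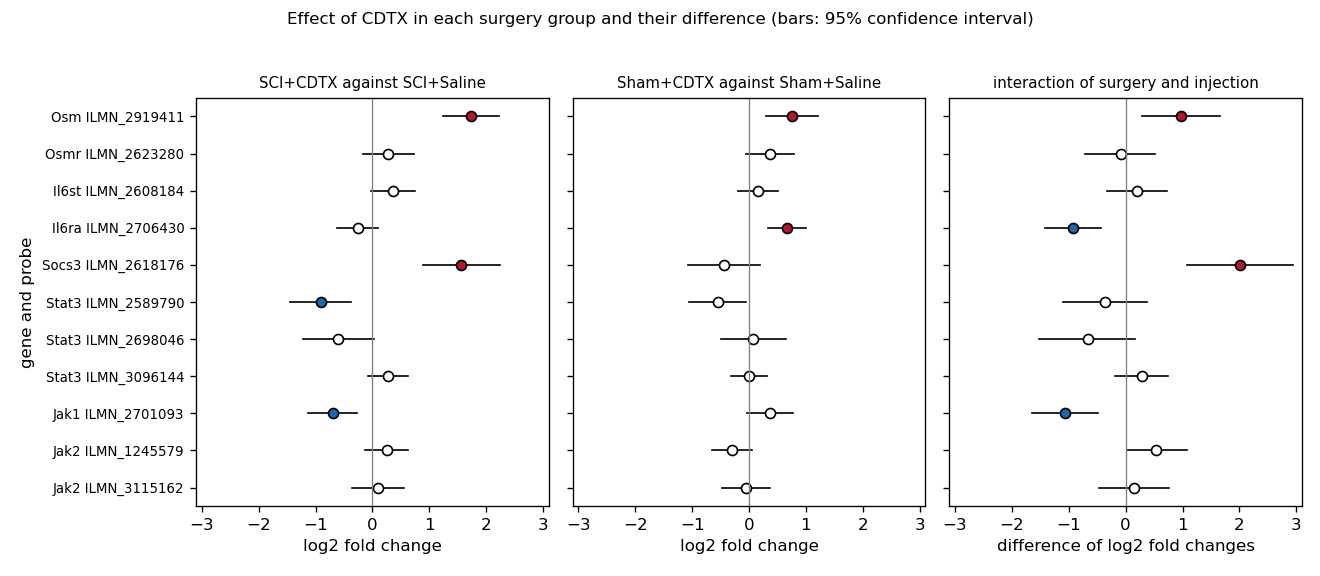
Log2 fold change of the 11 tested probes for CDTX after cord injury (left) and after sham surgery (middle), and the difference between them (right), with 95% confidence intervals; filled points have an adjusted p under 0.05. Osm and Socs3 are filled to the right in the first and last panels, and Il6ra and Jak1 to the left in the last.

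Over the 7 contrasts the share of these probes that passed ran from 18.2% to 54.5%, where that of all tested probes ran from 23.6% to 48.9%, and nothing is read from the counts alone. CDTX after cord injury called 4 of 11 probes (Osm and Socs3 higher, Stat3 ILMN_2589790 and Jak1 lower), while 42.9% of all tested probes were called. CDTX after sham surgery called 2 (Osm and Il6ra, both higher), with 48.9% of all probes called. SCI+CDTX against Sham+CDTX called 4 (Osm, Il6st and Socs3 higher, Il6ra lower), with 29.8% of all called. SCI+Saline against Sham+Saline called 4 (Il6ra and Jak1 higher, both Jak2 probes lower), with 29.5% of all called.

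SCI+CDTX against Sham+Saline called 6 of the 11 (3 in each direction), with 46.5% of all called. SCI+Saline against Sham+CDTX called 5 (Stat3 ILMN_2589790 and Jak1 higher, Osm and both Jak2 probes lower), with 47.8% of all called. The interaction called 4 (Osm and Socs3 positive, Il6ra and Jak1 negative), with 23.6% of all called. The medians of the 11 probes lay between -0.11 and 0.26 over the 7 contrasts, where the medians of all probes lay between -0.05 and 0.04. The comparisons share arrays with each other, and all rest on the 15 arrays without SCI+CDTX 2.

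The split into higher and lower depended on the scaling of the arrays. In the quantile-normalized data 47.3% to 51.5% of all called probes were higher over the 7 contrasts. With each array scaled to its median instead, 85.1% were higher for CDTX after sham surgery, 64.9% for CDTX after cord injury, 86.4% for SCI+Saline against Sham+Saline and 82.6% for SCI+CDTX against Sham+Saline. Under that scaling the probes of these genes were called 8 higher and 0 lower, 5 and 0, 4 and 0, and 6 and 0 in the same 4 contrasts. For SCI+Saline against Sham+CDTX 35.1% of all calls were higher and the members gave 0 and 5, and for the interaction 17.7% were positive and the members gave 2 and 3. The calls of Osm and Socs3 in SCI+CDTX against SCI+Saline stood under both scalings.

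SCI+CDTX 2 stood apart from the other 3 SCI+CDTX arrays over the set as a whole. It lay above all 3 on 7 of the 11 probes, below all 3 on 2 (Osm and Socs3) and within them on 2. The largest gaps were 1.94 above their mean for Jak1, 1.24 below it for Osm and 1.16 below it for Socs3.

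Genes that STAT3 is known to induce were counted from a list of 22, of which 20 were tested, each by its brightest probe. The list was chosen with earlier results of these data known, so its counts are a description and no test of STAT3 activity. The shares of all probes set beside them include dimmer probes. Under the stricter detection filter that share was 53.8% for CDTX after cord injury and 58.6% for CDTX after sham surgery. It was 39.1% for SCI+CDTX against Sham+CDTX and 30.6% for the interaction. In SCI+CDTX against SCI+Saline 12 rose and none fell, where 42.9% of all probes were called in either direction, with a median of 0.98 against -0.05 for all probes. CDTX after sham surgery gave 13 higher and 1 lower, where 48.9% of all were called, with a median of 1.02. The interaction called 4 positive and 2 negative, where 23.6% of all were called, with a median of 0.02, while Socs3 itself gave 2.01. Over all 16 arrays the counts were 13 and 0, 13 and 1, and, for the interaction, 1 and 2, where 35.6%, 44.6% and 10.5% of all probes were called. With the score as a covariate the interaction called none of the 20, with 3 at an unadjusted p under 0.05 in limma and 0.298% of all probes called.

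After cord injury the CDTX effect was largest for Saa3, an acute-phase serum amyloid (3.38 ± 0.48, adjusted p = 2.27e-05 in limma), Hp, the haemoglobin-binding haptoglobin (2.99 ± 0.32, adjusted p = 1.84e-06), and Timp1, an inhibitor of matrix metalloproteinases (2.90 ± 0.52). After sham surgery it was largest for Ccl2, a chemokine that draws monocytes (3.55 ± 0.45), Timp1 (3.04 ± 0.48) and Saa3 (2.67 ± 0.44). Vegfa, an endothelial growth factor, fell by 1.47 ± 0.20 after sham surgery. SCI+CDTX against Sham+CDTX called 8 of the 20 higher, led by Serpina3n, a secreted protease inhibitor (2.66 ± 0.29), Lcn2, an iron-carrier-binding neutrophil protein (2.54 ± 0.59), and Saa3 (2.32 ± 0.48), and 2 lower, where 29.8% of all probes were called. Over all 16 arrays this contrast called 6 higher and 1 lower, where 17.7% of all probes were called. With the score as a covariate it called 2 higher and none lower, with 4 at an unadjusted p under 0.05 in limma and 1.82% of all probes called.

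Of the other kinases and STATs of the pathway (7 of 8 tested), CDTX after cord injury raised 6 and lowered none, with a median of 0.87, where 42.9% of all probes were called. CDTX after sham surgery raised 5 and lowered 1, with a median of 0.54, where 48.9% of all were called. Tyk2, another receptor kinase, rose by 1.19 after cord injury, and its means after sham surgery were 7.57 with CDTX and 6.66 with saline. Of the other inhibitors (8 of 9 tested), CDTX after cord injury raised 3 and lowered none, with a median of 0.30, and CDTX after sham surgery raised 3 and lowered 1, with a median of 0.11. The shares of all probes called were 42.9% and 48.9%, so nothing is read from these counts. Those raised after cord injury were Ptpn6, a phosphatase of blood cells, by 2.72, Ptpn1 by 1.17 and Pias3 by 0.37. Ptpn6 and Pias3 rose after sham surgery too. In the fit of all 16 arrays CDTX after sham surgery gave 2.90 for Ptpn6, 1.08 for Pias3 and -0.20 for Ptpn1. After cord injury that fit gave 2.44, 0.52 and 0.77. The largest change of this list in these contrasts was in Cish, a feedback inhibitor related to Socs3, which fell by 3.16 ± 0.50 after sham surgery (adjusted p = 4.2e-05 in limma) and gave -1.28 ± 0.55 after cord injury (adjusted p = 0.066). Over all 16 arrays the cord injury counts were 2 and 1, where 35.6% of all probes were called, with Ptpn1 at 0.77 (adjusted p = 0.0797 in limma) and Cish at -1.35 (adjusted p = 0.0462). Socs1, an inhibitor of the same family as Socs3, gave 0.23 and did not pass.

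Of the other receptors of the family (3 of 5 tested), CDTX after cord injury raised Il27ra by 1.12 and Il11ra1 by 0.73, while Lifr gave -0.12 and did not pass. Of the other ligands (3 of 7 tested), Ctf1, cardiotrophin 1, fell by 1.39 and Ebi3, a subunit of interleukins 27 and 35, rose by 0.76. This effect of CDTX after cord injury was called for 42.9% of all probes. CDTX after sham surgery called none of the 3 receptors and, of the 3 ligands, 1 higher and 1 lower, where 48.9% of all probes were called. Ctf1 averaged 6.23 in Sham+CDTX and 7.87 in Sham+Saline. Ebi3 averaged 5.34 and 4.36 in the same groups and was detected on no Sham+Saline array. Cntf, Clcf1 and Il27 were among those not tested.

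Whole muscle mixes cell types, so fewer cells of a type and less RNA per cell cannot be told apart. The summed level of 7 macrophage and monocyte markers was 11600 to 17100 in SCI+CDTX (9110 on SCI+CDTX 2), 13700 to 16900 for Sham+CDTX, 783 to 3570 for SCI+Saline and 1030 to 1880 for Sham+Saline. Both CDTX groups were therefore high in these markers without overlapping the saline groups. Osm was also higher in each CDTX group than in its own saline group. Between SCI+CDTX and Sham+CDTX the macrophage sums overlapped. Osm and Socs3 did not overlap between these groups when SCI+CDTX 2 was left out. In the normalization of all 16 arrays, SCI+CDTX 2 read 5.19 for Osm, and Sham+CDTX read 5.2 to 5.53. For Socs3, SCI+CDTX 2 read 7.53, and Sham+CDTX read 6.56 to 7.14. The part of macrophages in the Osm and Socs3 differences was not tested. Single macrophage markers went different ways. Cd14 was higher in SCI+CDTX by 1.85 ± 0.28 (adjusted p = 7.78e-05 in limma) and Itgam by 0.43 (adjusted p = 0.0435), Mrc1 was lower by -1.02 (adjusted p = 0.00657), and the other 4 did not pass. The sum is taken on the linear scale, and its largest term was Lyz2, with log2 group means of 13.01 in SCI+CDTX and 13.13 in Sham+CDTX. Ccr2 was not tested.

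Neutrophil markers (6 of 9 tested) summed to 2980 to 5000 in SCI+CDTX, 2130 on SCI+CDTX 2 and 628 to 925 in Sham+CDTX. They ran from 2030 to 12800 in SCI+Saline and from 129 to 10600 in Sham+Saline, with 1 high array in each, replicate 4. The gap between the CDTX groups lay in S100a8 (3.31 ± 1.26, adjusted p = 0.0553 in limma) and S100a9 (3.49 ± 1.39, adjusted p = 0.0661), while Csf3r gave -0.16 and Retnlg -0.42, and none of the 6 passed. The defining genes Ly6g, Cxcr2 and Ngp were not tested. SCI+Saline 4 read 7.99 for Socs3 and 5.24 for Osm. Sham+Saline 4 read 7.10 for Socs3 and 4.70 for Osm, where Osm was not detected. Lymphocyte markers (4 of 7 tested) summed to 161 to 260 in SCI+CDTX, 127 on SCI+CDTX 2 and 77.8 to 145 in the other groups, with Ms4a1 and Cd79a among those not tested. All 4 lymphocyte markers tested passed as higher in SCI+CDTX than in SCI+Saline and Sham+CDTX, where 42.9% and 29.8% of all probes were called. None of the 4 passed for CDTX after sham surgery, where 48.9% of all were called. The interaction called 3 positive, where 23.6% of all were called. Cd3e, Cd3d and Cd3g were dim, with SCI+CDTX means of 5.44, 5.52 and 5.34 and detection on 4 of 15 arrays each. The part of these cells in the Osm and Socs3 differences was not tested.

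**Figure D4:**
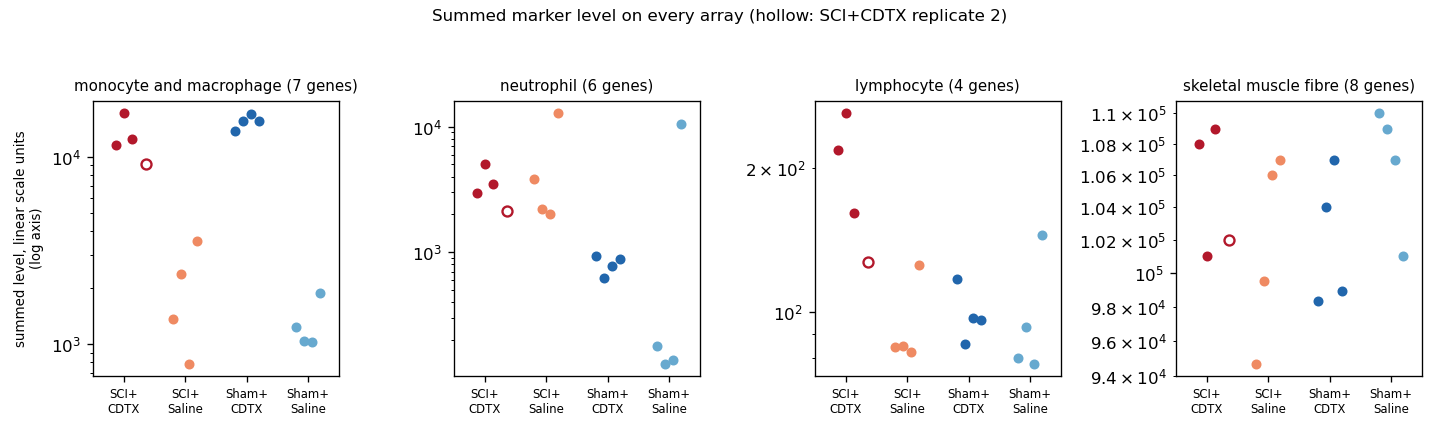
Summed level of marker genes on every array, on a log axis, for 4 cell types; the hollow point is SCI+CDTX 2. Macrophage markers are high in both CDTX groups (11600 to 17100 and 13700 to 16900), while the neutrophil sums lie at 2980 to 5000 in SCI+CDTX and at 628 to 925 in Sham+CDTX, a gap that S100a8 and S100a9 carry and in which none of the 6 markers passed the test.

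The genes with profiles most like Osm were found over the 15 arrays by the root mean square difference between centred log2 profiles, among 8521 genes. They were Efemp2 (0.22), Trerf1 (0.24), Csrp2 (0.24), Apobr (0.25) and Tpx2 (0.26). Efemp2, an elastic fibre protein, had group means of 9.11 for SCI+CDTX and 7.18 for SCI+Saline, and of 8.07 for Sham+CDTX and 7.34 for Sham+Saline. For Socs3 they were Slc27a3 (0.30), Tacc1 (0.35), Pkn3 (0.36), Adgra2 (0.36) and Atp13a1 (0.38). Slc27a3 had group means of 6.97, 5.48, 5.36 and 5.71 for the 4 groups in that order, a pattern in which SCI+CDTX stood alone. No gene appeared among the first 5 of both.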

How the data were processed

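The deposited table gives the authors' mean bead intensity for each probe and array with no normalization or background subtraction, and a detection p-value and bead number beside it, per the file headers. GenomeStudio 2011.1 is named in the submitters' processing notes. The authors' difference p-values and group means were copied from their final table, whose intensity was background-subtracted and normalized to the array average, per the file headers. The headers leave unclear whether those p-values were corrected.

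Intensities were background-corrected from the detection p-values (neqc, offset 16), quantile normalized and set to log2 in limma 3.58.1 (R 4.3.3; files read by data.table of version 1.17.8). The offset understates folds of dim probes. Probes detected at p under 0.05 on at least 3 of 15 arrays were kept. limma fitted the 4 group means in 1 model, and a difference passed at a Benjamini-Hochberg adjusted p under 0.05 over all 14763 probes. Scripts were tested on simulated data. Symbols were updated through Entrez identifiers for 23681 probes. The table's genome build is not given in the sources used here, so probes have a chromosome and band only. The probe difference score is the first component (33.2% of variance) of the differences between the 2 brightest probes of each gene. The number of arrays limits the precision.

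All probes of the 10 genes are described. Other genes are the list members with the highest and lowest called changes, at most 3 each, and the 5 most similar profiles; Socs1 and Lifr were named after their values were seen. Some list members stand in the counts but are not reported here by name. The members and lists were chosen with earlier results of these data known. Alternatives were all 16 arrays, the score, array weights, median scaling, no background correction, other detection filters, another variance model, the compared groups alone, the replicate number as a block, separate slides, and each array left out. The list counts over all 16 arrays and with the score were added after the data were seen.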

Additional observations from a re-analysis of the deposited data

Results flagged for a closer look

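Jak1 on SCI+CDTX 2 stood far from the other arrays of its group, at 8.91 against 6.82 to 7.17, a gap of 0.829 of the group's whole range. Jak1 on Sham+Saline 1 stood low, at 6.33 against 6.74 to 6.82, a gap of 0.842 of the range. These were 2 of 44 combinations of probe and group examined, and chance gives about 1 in 20.

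The effect of CDTX differed between cord-injured and sham-operated mice for 4 probes, by the interaction test in limma. The difference was 0.97 for Osm, 2.01 for Socs3, -0.92 for Il6ra and -1.07 for Jak1. For Osm and Il6ra, undetected on all Sham+Saline arrays, the sizes are not exact. The interaction also sets 1 slide against the other.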

How the results depend on the processing

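Counts of the 11 probes passing moved by more than 1.5 times as follows. Over all 16 arrays the count was 2 (from 4) in SCI+CDTX against Sham+CDTX, 2 (from 4) in SCI+Saline against Sham+Saline, 1 (from 5) in SCI+Saline against Sham+CDTX and 2 (from 4) for the interaction. The whole array lost calls as well. The shares of all probes called were 17.7%, 24.3%, 43.6% and 10.5% in that order, from 29.8%, 29.5%, 47.8% and 23.6%. With the probe difference score the counts were 4 (from 2) in Sham+CDTX against Sham+Saline, 1 in SCI+CDTX against Sham+CDTX, 3 in SCI+Saline against Sham+CDTX and 0 for the interaction, where 3 probes had an unadjusted p under 0.05 in limma. That fit called 21.6%, 1.82%, 25.9% and 0.298% of all probes in the same order. Array weights gave 2 in SCI+Saline against Sham+Saline, where 23.2% of all probes were called. No detection filter gave 3 in SCI+Saline against Sham+CDTX and 3 (from 6) in SCI+CDTX against Sham+Saline, or 4 there with Il6. Those contrasts then called 26.2% and 25.9% of all 25697 probes. In Sham+CDTX against Sham+Saline median scaling gave 8, no background correction 1 and the stricter filter 1, the last without Il6ra. These settings called 53.4%, 47.4% and 58.6% of all probes. The authors' table gave 7 in SCI+CDTX against SCI+Saline (Osm, Osmr, Il6st, Socs3, Stat3 ILMN_3096144 and both Jak2 probes), without Jak1 or Stat3 ILMN_2589790.

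With each array left out in turn the counts ran from 2 to 5 in SCI+CDTX against SCI+Saline, 2 to 3 in Sham+CDTX against Sham+Saline, 2 to 4 in SCI+CDTX against Sham+CDTX, 2 to 4 in SCI+Saline against Sham+Saline, 3 to 6 in SCI+CDTX against Sham+Saline, 1 to 5 in SCI+Saline against Sham+CDTX and 3 to 4 for the interaction. The low counts came without SCI+CDTX 3 (2, 2 and 3 in its contrasts), without Sham+Saline 4 (2), and without SCI+Saline 1 or Sham+CDTX 2 (1 each) or SCI+Saline 3 or Sham+CDTX 3 (3 each). Leaving out SCI+CDTX 3 also lowered the shares of all probes called in its contrasts, to 32%, 22.7% and 38.4%. The cause was not tested.

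With the score 27 of 77 probe results changed sign, and with median scaling 16. Of these, 9 and 5 were past the threshold in at least 1 of the fits compared, and they are the ones given here. With the score they were Il6ra (-0.07 in Sham+CDTX against Sham+Saline, 0.06 in SCI+CDTX against Sham+CDTX), Jak1 (-2.23 and 2.03 there, and 1.30 for the interaction), Osm (-0.09 in SCI+CDTX against Sham+CDTX and -0.37 for the interaction) and Jak2 in SCI+Saline against Sham+CDTX (0.16 and 0.70). With median scaling they were, in Sham+CDTX against Sham+Saline, Stat3 ILMN_3096144 (0.79) and Jak2 ILMN_3115162 (0.76), and, in SCI+CDTX against Sham+Saline, Stat3 ILMN_2589790 (0.04) and both Jak2 probes (0.26 and 0.22). Median scaling moved the median of all probes to 0.32 in both contrasts.

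Osm and Socs3 against SCI+Saline kept their direction and stayed past the threshold under every alternative run. The replicate block gave counts of 4, 2, 3, 3, 4, 5 and 4 over the 7 contrasts in the order of the left-out arrays above; 73 of 77 probe results kept their call and 4 lost it (Il6ra in 2 contrasts, both Jak2 probes in SCI+CDTX against Sham+Saline). Same-numbered arrays correlated at -0.271 to 0.377 (median -0.0229), and 3 of 15 arrays correlated best with their own number, so the numbers do not pair the samples. Signal near background limits Il6, Lif, Il6ra and, in the saline groups, Osm.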
